A study of Equus caballus with 19 samples.

Results

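Cells hold on to each other, to their neighbours and to passing leukocytes through a small set of surface proteins, and 8 genes for such proteins were followed here in equine tenocytes exposed to IL-1β. They are ICAM1, VCAM1 and ALCAM, which leukocytes bind, the cadherins CDH2, CDH11 and CDH13, the neural cell adhesion molecule NCAM1, and GJA1, which encodes the gap junction protein connexin 43. The members were chosen by gene name, and all 8 were found among the 29196 gene names of each of the 2 deposited tables and passed the filter on low values in both. The study cultured adult tenocytes, the fibroblast-like cells of tendon, from the superficial digital flexor tendon of horses, and each line came from 1 horse. All lines had the wild-type genotype label and were kept to day 14 in three-dimensional (3D) gels of bovine type 1 collagen, so that control gels and stimulated gels shared the same matrix and medium. The first batch held lines 1 to 5, each as an unstimulated control and as a gel given IL-1β at 1 nM (10 libraries). Lines 6 to 8 made up the second batch, in 3 conditions each: an unstimulated control, IL-1β at 1 nM, and the same dose of IL-1β together with the IL1 receptor antagonist protein IL1Ra at 100 ng/ml (9 libraries). No library of IL1Ra alone was analysed here. The comparison with IL-1β asked how the inflammatory cytokine changed the cells, and the comparison with IL1Ra asked how far blocking the receptor altered that change.

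ICAM1 and VCAM1 are immunoglobulin superfamily proteins on the cell surface. Leukocyte integrins bind them, and inflammatory cytokines induce both genes through NF-κB in endothelium and in fibroblasts. ALCAM (CD166) belongs to the same superfamily and binds CD6 on lymphocytes as well as other ALCAM molecules. Cadherins join like cells across a calcium-dependent contact, with catenins linking their tails to actin. CDH2 (N-cadherin) and CDH11 (cadherin 11, the fibroblast cadherin) are the classical cadherins known from tendon, where they sit at the contacts between tenocyte processes. CDH13 (T-cadherin) differs from them in having no cytoplasmic tail, is held in the membrane by a lipid anchor, and binds adiponectin. NCAM1 mediates contacts between neural and mesenchymal cells, and connexin 43 forms the gap junctions through which tenocytes in neighbouring rows exchange small molecules.

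Values are normalised counts, that is, gene counts that the authors estimated from the reads and normalised within each batch. Libraries were therefore compared only within a batch. With M for 1e6 counts, a library summed to 43.4 to 49.2 M in batch 1 and to 25.0 to 34.6 M in batch 2. Where low values came close to whole reads, 1 read was worth 0.873 to 1.21 normalised counts in batch 1 and 0.863 to 1.12 in batch 2. No gene lengths of the build used were at hand, so levels of different genes were not compared. Fold changes and tests were computed on log2(normalised count + 1) with limma, on the 14719 first-batch genes and the 16705 second-batch genes that passed the filter. A gene was called differentially expressed (DE) when its Benjamini-Hochberg adjusted p was under 0.05 and its log2-fold change was at least 1 in either direction. Of the tenocyte markers, SCX, a transcription factor of tendon cells, was at 822 to 2110 normalised counts in first-batch controls and 105 to 4720 in second-batch controls, whereas TNMD, the mature tendon marker tenomodulin, was listed at 0 in every first-batch library and at 1.00 or less in the second. The leukocyte marker PTPRC (CD45) stood at 6.46 or less in every library and the endothelial cadherin CDH5 at 3.50 or less. The leukocyte marker CD14 differed between libraries, at 0 to 1947 in first-batch controls and 0 to 1195 in second-batch controls.

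In the first batch, ICAM1 rose with IL-1β, and CDH13 and NCAM1 fell. This made 1 member DE upwards and 2 DE downwards of 8, where 4.91% of all genes tested were DE upwards and 7.9% downwards. The other 5 members did not pass, although 5 of the 8 had an unadjusted p under 0.05, beside 39.5% of all genes. Among the 5 that did not pass, VCAM1 was higher with IL-1β in 5 of 5 lines and CDH2 was lower in 5 of 5, with large differences between the lines themselves. In every line, 2 members were higher with IL-1β (ICAM1 and VCAM1) and 4 were lower (CDH2, CDH13, NCAM1 and GJA1), beside 24.8% and 25% of all genes. The median log2-fold change was −0.63 over the 8 members and −0.0034 over all genes tested. In bulk libraries such as these, fewer cells of one kind and less RNA per cell cannot be told apart.

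**Figure D1:**
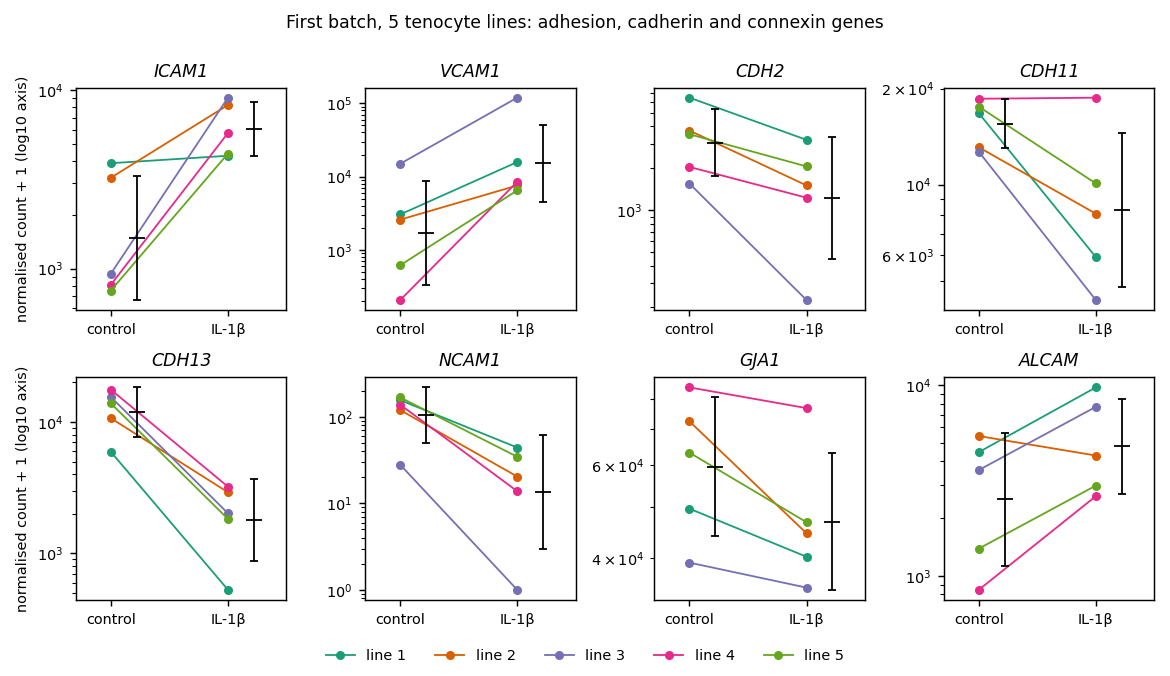
Normalised counts (plus 1, log10 axis) of the 8 genes in the first batch, with 1 line per tenocyte line joining its control and IL-1β library; black marks give the mean and bars the SD of the log2 values over 5 lines. ICAM1 and CDH13 have no overlap between the conditions, and VCAM1 lies far higher in line 3 than in the other lines under both conditions.

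ICAM1 normalised counts were 3895, 3229, 935, 810 and 752 in the controls of lines 1 to 5, and 4288, 8262, 9078, 5754 and 4411 in the same lines with IL-1β. Lines 1 and 2 had the high controls, every IL-1β library lay above every control library, and line 1 hardly differed between its 2 libraries. The means were 1924 ± 1515 and 6359 ± 2206 (SD, n = 5). A log2-fold change of 2.03 (SE 0.49, limma adjusted p = 0.0121) resulted, with within-line log2 ratios from 0.14 in line 1 to 3.28 in line 3. Groups without overlap occurred in 2 of the 8 members, ICAM1 and CDH13, and in 19.5% of all genes tested. Without line 3 or without line 4 the adjusted p of ICAM1 was 0.0578 and 0.0528, so that the call rested on either.

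VCAM1 was at 3044, 2584, 14945, 206 and 616 normalised counts in the controls of lines 1 to 5 and at 15782, 7561, 119250, 8511 and 6482 with IL-1β. All 5 lines were higher with IL-1β, by log2 ratios of 2.37, 1.55, 3.00, 5.36 and 3.39, yet the groups overlapped because the control of line 3 stood above the IL-1β libraries of lines 2, 4 and 5. The log2-fold change of 3.14 (SE 1.14) was the highest of the 8 members but did not pass (limma adjusted p = 0.0636). Pairing the libraries by tenocyte line, with the line as a block in the fit, gave an adjusted p of 0.0035, and leaving out line 3 gave 0.0235 without the block. Control libraries of VCAM1 spanned 72.7-fold, an SD of 2.36 on the log2 scale, and 99.0% of the genes tested had a smaller SD among the controls.

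ALCAM stood at 4455, 5411, 3587, 844 and 1389 normalised counts in controls and at 9731, 4275, 7698, 2619 and 2974 with IL-1β. Line 2 was lower with IL-1β (log2 ratio −0.34), and the other 4 lines were higher by 1.10 to 1.63. The mean difference was 0.92 on the log2 scale (SE 0.56, limma adjusted p = 0.245), and the groups overlapped. With the line as a block the SE was 0.26 and the limma adjusted p 0.0286, with the difference short of the limit of 1.

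CDH13 was the one of the 3 cadherins that was called. Its normalised counts were 5923, 10670, 15476, 17599 and 13845 in the controls of lines 1 to 5, and 527, 2917, 2017, 3215 and 1827 with IL-1β. Every IL-1β library lay below every control, and line 1 was the lowest under both conditions. The means were 12703 ± 4557 and 2101 ± 1057 (SD, n = 5), the within-line counts were 3.66 to 11.2 times lower, and the log2-fold change was −2.73 (SE 0.47, limma adjusted p = 0.0023). The call held in each of the alternatives tried.

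CDH2 normalised counts were 6433, 3733, 1552, 2044 and 3511 in controls and 3201, 1505, 225, 1228 and 2062 with IL-1β. The 5 lines were all lower with IL-1β, 1.66 to 6.90 times, and line 3 was lowest in both groups, which overlapped. The log2-fold change of −1.32 (SE 0.65) did not pass (limma adjusted p = 0.158), whereas with the line as a block the adjusted p was 0.0130.

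CDH11 was the member with the least spread among controls, at 16748, 13092, 12681, 18586 and 17557 normalised counts, an SD of 0.25 on the log2 scale where the median gene had 0.28. With IL-1β it was at 5923, 8103, 4342, 18732 and 10082. Lines 1, 2, 3 and 5 were lower and line 4 was level (log2 ratio 0.011), and the log2-fold change of −0.91 (SE 0.33) missed both limits (limma adjusted p = 0.0656). Without line 4 it was −1.13 with an adjusted p of 0.0165.

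NCAM1 had low counts throughout, at 156, 119, 27.0, 138 and 167 in the controls of lines 1 to 5 and at 43.3, 19.4, 0, 12.8 and 33.6 with IL-1β. Line 3 was the lowest in both groups, and its control fell among the IL-1β values of the other lines. A listed 0 need not be an absence of reads, since EIF2S2, a translation factor gene that every cell uses, was also listed at 0 in 3 of these 10 libraries. The log2-fold change was −2.96 (SE 0.97, limma adjusted p = 0.0435), and without line 3 it was −2.50 with an adjusted p of 0.0032. Without line 1, 2, 4 or 5 the call was lost, with adjusted p of 0.0662, 0.106, 0.129 and 0.0981, and with a pseudocount of 0.1 in place of 1 the adjusted p was 0.0940.

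GJA1 differed least between the conditions. It was at 49602, 72462, 39242, 83972 and 63256 normalised counts in controls and at 40255, 44558, 35205, 76754 and 46767 with IL-1β. The IL-1β library was lower in 5 of 5 lines, by log2 ratios of −0.13 to −0.70, and the ranges overlapped almost fully. The log2-fold change was −0.34 (SE 0.26, 95% confidence interval −0.91 to 0.22, limma adjusted p = 0.349).

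With the tenocyte line as a block, 2 members were DE upwards (ICAM1 and VCAM1) and 3 downwards (CDH2, CDH13 and NCAM1), beside 6% and 10.2% of all genes. CDH11 and ALCAM then had adjusted p of 0.0194 and 0.0286 with log2-fold changes short of 1, and GJA1 had 0.0621.

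Members of one family were set against each other within each library, by whether the log2 difference between 2 genes changed with IL-1β. The exact permutation test moved libraries freely between the conditions and did not use the pairing by line. The pairs were chosen with earlier results of these data known. The difference CDH13 minus CDH11 changed by −1.83 ± 0.53 (SD over 5 lines), lower in 5 of 5 lines (two-sided exact permutation test p = 0.0238, adjusted over 4 pairs 0.0476). NCAM1 minus ALCAM, the pair of immunoglobulin superfamily genes for homotypic contacts, changed by −3.88 ± 1.51, also lower in 5 of 5 lines (exact permutation p = 0.0159, adjusted 0.0476). Neither passed when lines were paired by flipping the sign of the within-line change (exact permutation adjusted p = 0.125 for both). That test cannot pass, the smallest unadjusted p possible being 0.0625. Neither passed when any 1 line was left out (exact permutation adjusted p 0.0762 to 0.171 and 0.0571 to 0.171). With 4 lines the smallest unadjusted p is 0.0286, which passes over 4 pairs only if several pairs reach it together. These 2 alternatives therefore cannot decide whether the results hold. For CDH2 minus CDH11 the change was −0.41 ± 0.68, lower in 3 of 5 lines (exact permutation p = 0.563, adjusted 0.563). ICAM1 minus VCAM1 changed by −1.11 ± 1.24, lower in 4 of 5 lines (exact permutation p = 0.373, adjusted 0.497), so that unequal change of these 2 leukocyte ligands was not detected.

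Families around the members were taken as fixed lists. Of 11 tested leukocyte adhesion ligands, ICAM5, an ICAM known from neurons, rose from a mean of 8.78 to 23.7 normalised counts (log2-fold change 1.39, limma adjusted p = 0.0151). This 1 call of 11, beside the 4.91% of all genes DE upwards, was lost without line 1, 4 or 5. With the line as a block 3 ligands were DE upwards (ICAM5, SELE and PECAM1), beside 6% of all genes. Of 5 tested integrin and other leukocyte receptor genes, 1 was DE downwards and 0 upwards, beside 7.9% and 4.91% of all genes. ITGB7, which pairs with ITGA4 to bind VCAM1 and MADCAM1, fell (−1.71, limma adjusted p = 0.0179), a call lost without line 2 or line 5. ITGB2, the β chain of the integrins that bind ICAM1, named after its values were seen, was at 3.87 or less in all 19 libraries.

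Among 10 other tested cadherins, 1 was DE upwards and 1 downwards, beside 4.91% and 7.9% of all genes. CDH1 (E-cadherin, the epithelial cadherin) fell from 1413 to 3904 normalised counts in controls to 20.5 to 544 with IL-1β (−4.75, limma adjusted p = 0.0021). CDH17 rose (2.80, limma adjusted p = 0.0055) at low counts, 3.88 to 27.9 in controls and 33.2 to 133 with IL-1β. With a filter of 50 normalised counts, 7 of these cadherins were tested and 0 were DE upwards. In the second batch, normalised separately, CDH1 was at only 10.3 to 107 in controls and 0 to 72.1 with IL-1β. Of 12 catenin partners, 1 was DE upwards and 2 downwards, beside 4.91% and 7.9% of all genes. CTNNA2 (α-catenin of neurons) rose by 4.73 (limma adjusted p = 0.0116). Its groups overlapped, at 1.35 to 93.2 normalised counts in controls and 55.6 to 1701 with IL-1β. JUP (plakoglobin) and ARVCF fell by 1.84 and 1.11 on the log2 scale (limma adjusted p = 0.0007 and 0.0108). The main cytoplasmic partners CTNNB1, CTNNA1 and CTNND1, named after their values were seen, had log2-fold changes of −0.0033, −0.0087 and −0.056.

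The immunoglobulin superfamily list had 7 of 19 genes DE downwards and 0 upwards, beside 7.9% and 4.91% of all genes. With the line as a block 9 were DE downwards and 1 upwards (CNTN1), beside 10.2% and 6% of all genes. L1CAM, a neuronal adhesion molecule, had a log2-fold change of −4.32 (limma adjusted p = 0.0010), with controls at 43.6 to 563 normalised counts and IL-1β libraries at 5.37 to 9.50. NRCAM fell by 2.75, THY1 (CD90, a mesenchymal surface marker) by 2.42 and BOC by 2.42 on the log2 scale (adjusted p = 0.0255, 0.0002 and 0.0002). The median of that list was −1.01. Of 7 connexin, pannexin and partner genes, 1 was DE upwards and 1 downwards, beside 4.91% and 7.9% of all genes. PANX2 rose by 2.51 (limma adjusted p = 0.0023), and GJB2 (connexin 26) fell by 3.44 on the log2 scale (adjusted p = 0.0040). Both had low counts in controls. PANX2 was at 10.5 to 24.6 normalised counts in controls and 42.0 to 229 with IL-1β, and GJB2 at 15.7 to 48.0 and 0 to 7.43. A filter of 50 normalised counts left 4 genes of the list tested and 0 DE.

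**Figure D2:**
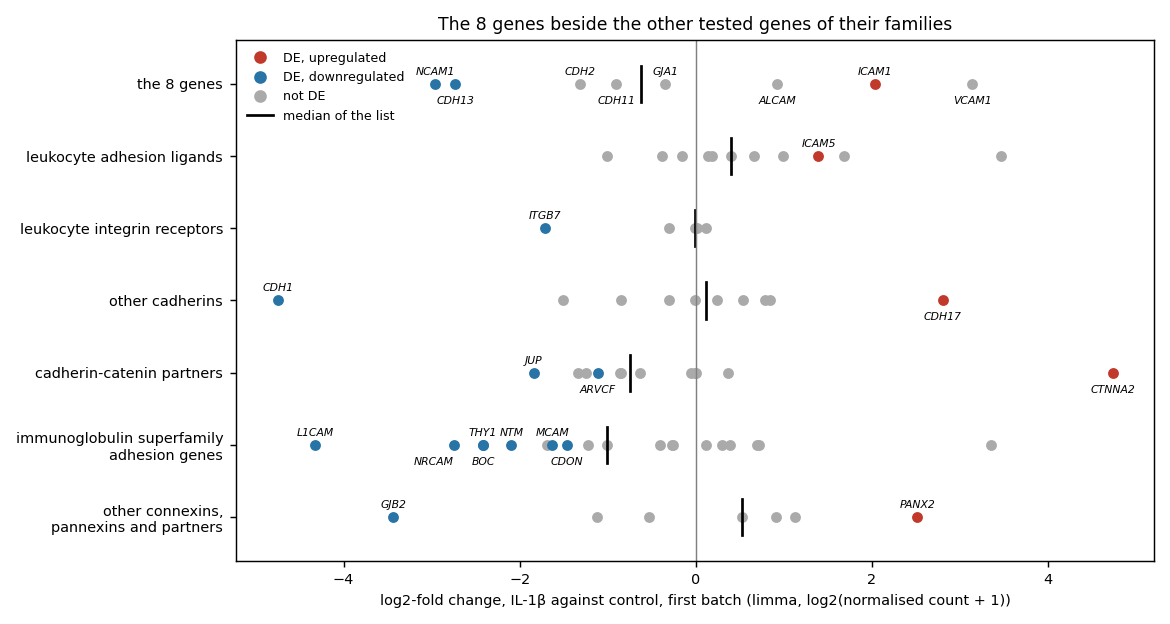
First-batch log2-fold changes with IL-1β (x axis, on log2(normalised count + 1), against controls) for the 8 genes and for the tested genes of 6 related lists, with DE genes named and coloured and a black bar at each list's median. The 7 called genes of the immunoglobulin superfamily list all lie below 0, and the list median is −1.01.

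Marker lists for other cell types moved with IL-1β beside these genes, and their part in the results was not tested. Summed normalised counts of 10 endothelial markers were 690 to 1732 in controls and 99.4 to 250 with IL-1β, of which ERG made up 588 to 1634 and 39.3 to 159 (log2-fold change −3.67, limma adjusted p = 0.0002). Of the other 3 endothelial markers tested, PECAM1, VWF and EGFL7 had log2-fold changes of 1.68, −1.53 and 0.24 and did not pass, although with the line as a block PECAM1 was DE upwards (limma adjusted p = 0.0455). Those of 8 pericyte and smooth muscle markers were 22923 to 55341 in controls and 6890 to 12373 with IL-1β, with 5 of 8 DE downwards, beside 7.9% of all genes. The 4 with the largest falls were DES, CSPG4, NOTCH3 and RGS5 (−4.10, −3.80, −1.87 and −1.68). The fifth was MCAM (−1.63), which the immunoglobulin superfamily list also holds. ABCC9, named after its values were seen, went the other way, with a log2-fold change of 3.36 (0 to 65.8 normalised counts in controls and 7.09 to 206 with IL-1β, limma adjusted p = 0.130). With the line as a block it was DE upwards (adjusted p = 0.0190) and the other 7 were DE downwards, beside 6% and 10.2% of all genes. Of 9 tested tenocyte markers 7 were DE downwards, beside 7.9% of all genes, and without line 5 the count was 3. SCX, COMP, MKX and THBS4 were at −4.25, −4.08, −3.95 and −3.16. THBS4 had low counts, 6.97 to 191 in controls and 0 to 14.1 with IL-1β. DCN (decorin), named after its values were seen, was higher in 5 of 5 lines (44076 to 93120 normalised counts in controls and 67407 to 132486 with IL-1β, log2-fold change 0.73, limma adjusted p = 0.0626). Leukocyte markers summed to 190 to 2162 and 346 to 3688, with CD3E, CD3D and CD79A listed at 0 in every first-batch library. CD14, named after its values were seen, ranged from 0 to 1947 normalised counts in controls and from 0 to 2811 with IL-1β, with a median of 0 in both. CD68 rose (2.64, limma adjusted p = 0.0026) and NKG7 had −1.32 (adjusted p = 0.125). None of the 10 nerve and skeletal muscle markers passed the filter, and they summed to 20.9 or less per library.

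In the second batch, IL-1β against control gave 0 of 8 members DE, beside 0.341% of all genes (57 of 16705) by limma, 0.269% upwards and 0.0718% downwards. At an unadjusted p under 0.05 there were 2 members, CDH11 and NCAM1, beside 11.4% of all genes. With the tenocyte line as a block, VCAM1 was DE upwards and CDH2, CDH13 and NCAM1 downwards, 4 of 8 members beside 5.18% of all genes (2.59% in each direction). The 2 groups did not overlap for VCAM1, CDH11 and NCAM1, 3 of 8 members beside 16.4% of all genes. In every line, VCAM1 and GJA1 were higher and 5 members lower (CDH2, CDH11, CDH13, NCAM1 and ALCAM), beside 19.1% and 18.9% of all genes. With 3 libraries against 3 an exact permutation test of a single gene cannot go below p = 0.1.

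**Figure D3:**
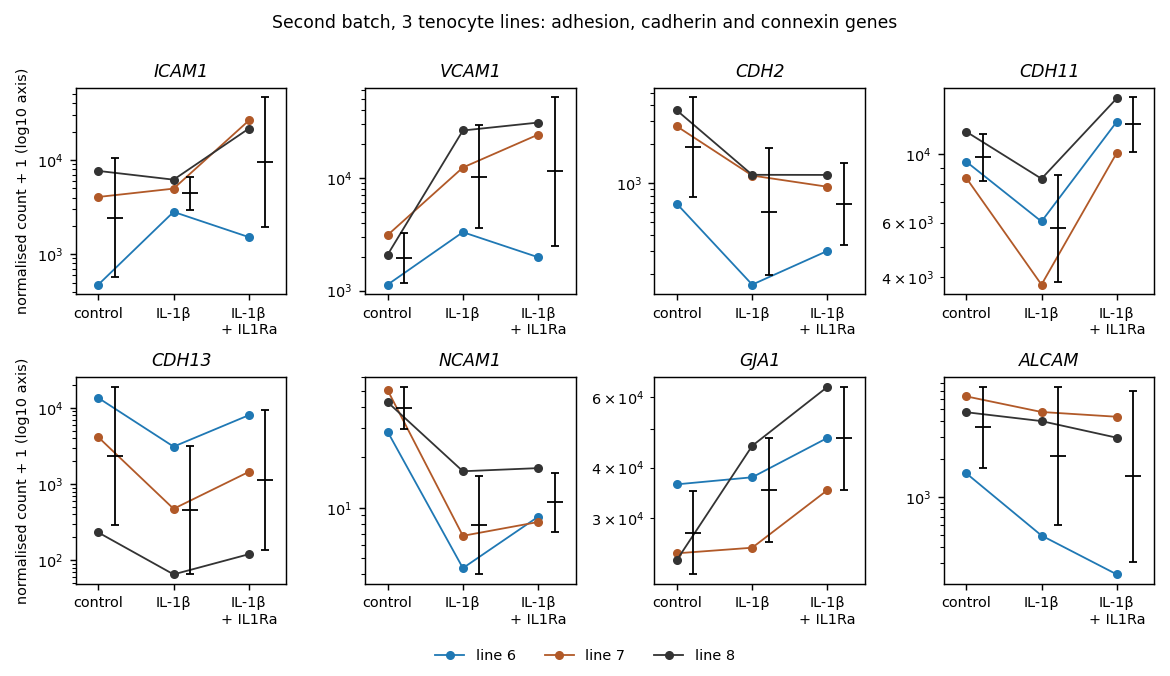
Normalised counts (plus 1, log10 axis) of the 8 genes in the second batch, with a line per tenocyte line through its control, IL-1β and IL-1β + IL1Ra libraries, and the mean and SD of the log2 values in black. CDH11 is lowest with IL-1β and highest with IL-1β + IL1Ra in 3 of 3 lines, whereas ICAM1 and VCAM1 are highest with IL-1β + IL1Ra in lines 7 and 8 only.

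VCAM1 was at 1128, 3111 and 2081 normalised counts in the controls of lines 6, 7 and 8 and at 3301, 12379 and 26388 with IL-1β. All IL-1β libraries lay above all controls, with the lowest value just above the highest control. The log2-fold change was 2.40 (SE 1.12, limma adjusted p = 0.466, and 0.0459 with the line as a block).

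ICAM1 did not move alike in the 3 lines. It was at 474, 4055 and 7673 normalised counts in controls and at 2815, 4974 and 6192 with IL-1β. Line 6, the line with the low control, was 5.94-fold higher, whereas lines 7 and 8 had log2 ratios of 0.29 and −0.31. The log2-fold change was 0.85 (SE 1.28, 95% confidence interval −2.07 to 3.78, limma adjusted p = 0.892), and without line 6 it was −0.0074.

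CDH13 was at 13527, 4130 and 231 normalised counts in the controls and at 3105, 474 and 64.4 with IL-1β. The lines differed far more than the conditions, since the controls spanned 58.5-fold. Within lines 6, 7 and 8 the counts were 4.36, 8.72 and 3.59 times lower, with a log2-fold change of −2.36 (SE 2.05, limma adjusted p = 0.784, with the block SE 0.25 and 0.0061).

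CDH2 was at 693, 2745 and 3643 normalised counts in controls and at 164, 1146 and 1161 with IL-1β, lower in 3 of 3 lines (log2-fold change −1.66, SE 0.94, limma adjusted p = 0.569, with the block 0.0120). CDH11 was at 9433, 8359 and 11778 and at 6052, 3789 and 8310, with the highest IL-1β value just below the lowest control (−0.76, SE 0.31, limma adjusted p = 0.403, with the block 0.0623). NCAM1 was at 27.4, 49.3 and 41.7 and at 3.36, 5.80 and 15.5 (−2.32, SE 0.61, limma adjusted p = 0.182, with the block 0.0332). All 3 genes were lower with IL-1β in every line of both batches except CDH11 in line 4.

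For GJA1 and ALCAM the 2 batches lay on opposite sides of 0, and the difference between batches was not tested. GJA1 was at 36351, 24472 and 23562 normalised counts in controls and at 37854, 25270 and 45340 with IL-1β, close to level in lines 6 and 7 and 1.92-fold higher in line 8 (log2-fold change 0.35, SE 0.35, limma adjusted p = 0.817). ALCAM was at 1543, 6293 and 4709 in controls and at 494, 4730 and 4004 with IL-1β, lower in 3 of 3 lines (−0.76, SE 1.24, limma adjusted p = 0.907).

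**Figure D4:**
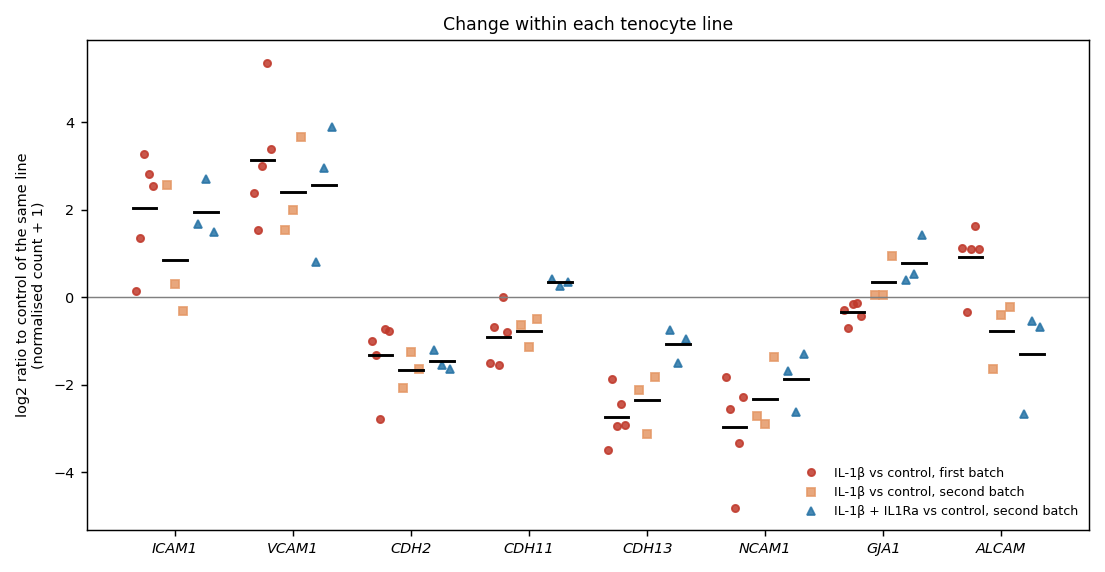
Log2 ratio to the control of the same tenocyte line (on normalised count + 1) for each of the 8 genes, with 1 point per line and black bars at the means, for IL-1β in the first batch (5 lines), IL-1β in the second (3 lines) and IL-1β + IL1Ra in the second. VCAM1 lies above 0 and CDH2, CDH13 and NCAM1 below 0 in all 8 lines with IL-1β, and CDH11 lies above 0 in 3 of 3 lines with IL-1β + IL1Ra.

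Adding IL1Ra left the 8 genes without a call against either other condition. IL-1β + IL1Ra against control gave 0 of 8 members DE by limma, beside 0.012% of all genes, and 1 member, NCAM1, at an unadjusted p under 0.05, beside 5.67%. IL-1β + IL1Ra against IL-1β also gave 0, beside 0% of all genes, and again 1 member, CDH11, at an unadjusted p under 0.05, beside 2.78%. With the line as a block both counts were 0 as well, beside 0.251% (0.21% upwards, 0.0419% downwards) and 0.00599% of all genes. Against control, 4 members were higher in every line (ICAM1, VCAM1, CDH11 and GJA1) and 4 lower (CDH2, CDH13, NCAM1 and ALCAM), beside 20.1% and 19% of all genes. Against IL-1β, 4 were higher in every line (CDH11, CDH13, NCAM1 and GJA1) and 1 was lower (ALCAM), beside 15.6% and 16.8%. Both comparisons share libraries with IL-1β against control, so they are given side by side and not as independent results.

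CDH11 was the member whose IL-1β + IL1Ra libraries all lay above its IL-1β libraries, at 12681, 10066 and 15084 normalised counts in lines 6, 7 and 8. Groups without overlap occurred in 1 of 8 members in this comparison and in 6.47% of all genes. Its log2-fold change was 1.11 against IL-1β (SE 0.31, limma adjusted p = 0.9999) and 0.35 against control (SE 0.31, adjusted p = 0.9997), with all 3 lines higher than their controls.

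CDH13 with IL-1β + IL1Ra was at 8035, 1449 and 119 normalised counts, between control and IL-1β in each of the 3 lines. The log2-fold change was 1.29 against IL-1β and −1.07 against control (both SE 2.05, limma adjusted p = 0.9999 and 0.9997). NCAM1 was at 7.84, 7.22 and 16.2, a log2-fold change of 0.45 against IL-1β and −1.87 against control (both SE 0.61, limma adjusted p = 0.9999 and 0.752). All 3 NCAM1 libraries lay below all 3 controls, as they did in 1 of 8 members and 11.8% of all genes. CDH2 was at 300, 939 and 1159, with log2-fold changes of 0.19 and −1.47 (both SE 0.94, limma adjusted p = 0.9999 and 0.9997). It was lower than control in 3 of 3 lines and above IL-1β only in line 6.

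In lines 7 and 8 the leukocyte ligands ICAM1 and VCAM1 lay farther from control with the antagonist than with IL-1β alone, and in line 6 they lay nearer. VCAM1 was at 1976, 24269 and 31034 normalised counts with IL-1β + IL1Ra, above control in 3 of 3 lines and above IL-1β in lines 7 and 8 (log2-fold changes 2.56 and 0.16, both SE 1.12, limma adjusted p = 0.880 and 0.9999). ICAM1 was at 1518, 26342 and 21624, above control in 3 of 3 lines (1.96, SE 1.28, limma adjusted p = 0.9997). In lines 7 and 8 it was 5.30- and 3.49-fold above the IL-1β library of the same line, and in line 6 it was lower (log2 ratio −0.89). Over the 3 lines the log2-fold change against IL-1β was 1.11 (95% confidence interval −1.82 to 4.03, limma adjusted p = 0.9999). With the block and without line 6, ICAM1, VCAM1 and CDH2 were DE against control (2.10, 3.43 and −1.60, limma adjusted p = 0.0333, 0.0164 and 0.0173). That fit was chosen after seeing the data and rests on 2 lines. Blocked fits of this comparison with 1 line left out called 0 to 414 of 16705 genes.

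GJA1 was at 47452, 35174 and 63585 normalised counts with IL-1β + IL1Ra, the highest of the 3 conditions in each line. Its log2-fold changes were 0.78 against control and 0.43 against IL-1β (both SE 0.35, limma adjusted p = 0.901 and 0.9999). ALCAM was at 242, 4335 and 2956, the lowest of the 3 conditions in each line, with −1.29 and −0.53 (both SE 1.24, limma adjusted p = 0.9997 and 0.9999).

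The 6 family lists had 0 genes DE in the second batch in any comparison by limma. With the block, IL-1β against control called JAM2 and CNTN1 upwards and MCAM, CDON and NTM downwards, beside 2.59% of all genes in each direction. These 5 were named because the block called them. In the second batch endothelial markers summed to 562 to 1102 normalised counts in controls, 107 to 133 with IL-1β and 97.1 to 364 with IL-1β + IL1Ra. Tenocyte markers summed to 276760 to 912751, 311645 to 473833 and 156381 to 830863 in that order. The largest part was a collagen gene, COL1A2, at 106825 to 400306, 120335 to 191857 and 70968 to 336253. SCX added little to these sums, at 105 to 4720, 13.6 to 278 and 10.5 to 1523. Pericyte and smooth muscle markers summed to 5626 to 16210, 2841 to 8113 and 2532 to 11890, leukocyte markers to 312 to 1517, 714 to 3357 and 805 to 2393, and nerve and skeletal muscle markers to 28.1 to 342, 23.5 to 386 and 24.2 to 573. CD14, of the leukocyte markers, was at 0 to 1195, 0 to 1262 and 0 to 1482 in that order. The part of these markers in the results was not tested.

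Most members differed between lines more than a typical gene did. In first-batch controls the SD of the log2 values was 2.36 for VCAM1, 1.16 for ICAM1 and ALCAM, 1.08 for NCAM1, 0.80 for CDH2, 0.62 for CDH13, 0.44 for GJA1 and 0.25 for CDH11, where the median gene had 0.28. In second-batch controls CDH13 had 3.02, ICAM1 2.10, CDH2 1.28 and ALCAM 1.07, where the median gene had 0.37, and CDH11 was again the least variable member at 0.25.

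For each member, the genes that varied most like it between libraries of one condition were found over 12350 genes, with likeness the smaller of the Pearson correlations in the 10 and the 9 libraries. Libraries of one line are not independent, so these values are descriptions. ICAM1 was most like DHX58 and BST2 (likeness 0.963 and 0.953), genes induced by interferon. CDH2 was most like APBB1IP and GRASP (0.983 and 0.973), CDH13 like PKDCC and PSTPIP2 (0.957 and 0.952), and ALCAM like BDKRB2, a bradykinin receptor, and BANK1 (0.928 and 0.913). NCAM1 was most like FOLH1B and CACHD1 (0.926 and 0.906), CDH11 like USP7 and the homeobox gene HOXA6 (0.907 and 0.896), GJA1 like GBE1, the glycogen branching enzyme, and TTC37 (0.885 and 0.857), and VCAM1 like ASCL4 and MHCB3 (0.858 and 0.843).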

How the data were processed

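RNA of 19 gel cultures was sequenced with a stranded mRNA kit. The deposited values are a signal, DESeq2-normalised counts: the authors quantified EquCab3.0 transcripts from paired-end reads with Salmon (GC-bias corrected), collapsed these to genes by tximport, and applied size factors within each batch (R 4.2.1, DESeq2 1.36 per the submitters' processing notes). Size factors do not correct for gene length.

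Low values came close to whole reads (within 0.02 of a read) for only 26.8% to 56.4% of genes, so a count model was not possible. Genes reaching 10 normalised counts in 5 or more (first batch) or 3 or more libraries (second batch) were fitted on log2(normalised count + 1) with limma 3.58.1 in R 4.3.3 (lmFit, eBayes with trend), all conditions of a batch together, and adjusted over all genes tested. Pseudocounts, filters, scalings, the block and left-out lines were alternatives. Libraries of a line come from 1 horse, so lines pair them. Deviations from the condition means correlated within lines (first batch 0.35 to 0.58, 5 pairs, second batch 0.54 to 0.79, 9 pairs) more than between lines (−0.36 to 0.29 and −0.62 to 0.25). No column was left unmapped and no libraries were identical.

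When 200 genes were given a log2 change of 2 in simulated data, the fit found 89.5% of them among 14719 genes in a first-batch layout (92.5% blocked). In a second-batch layout of 16705 genes it found 57.5% (77% blocked). The 200 were drawn only from genes with higher mean counts, so these shares do not cover genes with low counts such as NCAM1. The members, lists and tests were chosen with earlier results of these data known. Genes named are the 8 members, from each list up to 4 genes with the largest first-batch changes among those DE and moving the same way in 5 of 5 lines (or all tested, where at most 4 were), and the 2 genes most like each member, leaving out LOC names. Others, named after their values were seen, are the 3 main catenins, ITGB2, DCN, ABCC9, MCAM, single markers given as levels (such as TNMD, PTPRC and CDH5), EIF2S2 and genes that were called with the block alone. All 8 symbols matched a RefSeq table of a newer horse assembly, so no coordinates or sequences are given. One gene of a family list is not reported here.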

Additional observations from a re-analysis of the deposited data

Results flagged for a closer look

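Of 24 groups of 5 values tested for a sample far from the rest, 5 held one. The limit used gives about 1 in 20 by chance only for normally distributed values. Levels were tested as normalised counts without taking logs, so the 5 are not set against chance. The gaps in levels were not tested on the log2 scale. VCAM1 stood apart in line 3 in both first-batch groups, at 14945 normalised counts among controls (next 3044) and at 119250 with IL-1β (next 15782). GJA1 stood apart in line 4 with IL-1β, at 76754 normalised counts (next 46767). Among the within-line log2 ratios, CDH2 in line 3 was at −2.78 (next −1.31) and ALCAM in line 2 at −0.34 (next 1.10). GJA1 had a mean within-line log2 ratio of 0.35 in the second batch, where 3 of 3 lines were above 0, and of −0.34 in the first, where 5 of 5 were below. This difference between the batches was not tested, and the batches differ in donors and were normalised separately.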

How the results depend on the processing

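Of 532 values of the 8 genes under the alternatives, 490 kept direction and side of the threshold, 9 lost a call, 27 gained one and 6 changed sign. The number of members DE in the first batch, 3, was 5 with the tenocyte line as a block, which pairs the libraries, 2 to 3 with 1 line left out and 4 to 6 with both. Over all 14719 genes the counts were 1885, 2386, 1377 to 1716 and 2135 to 2358 in that order. In the second batch, IL-1β against control gave 4 with the block in place of 0, 0 to 2 with 1 line left out (2 without line 6, VCAM1 and CDH2) and 0 to 3 with both. Over all 16705 genes the counts were 865 with the block in place of 57, 0 to 324 with 1 line left out and 0 to 1236 with both. IL-1β + IL1Ra against control gave 0 with the block and 0 to 3 with the block and 1 line left out (3 without line 6), and against IL-1β it gave 0 throughout. Over all genes the counts were 42 and 0 to 414 against control, and 0 to 100 against IL-1β. The block with a line left out was chosen after seeing the data. The 2 pairs with unequal change became 0 when signs were flipped over 5 lines (the replicate pairing, smallest possible p 0.0625) and 0 with 1 line left out (exact permutation adjusted p 0.0571 to 0.171, smallest possible unadjusted p 0.0286). The first of these designs cannot pass the threshold, and the second can only if several of the 4 pairs reach its smallest p together. Neither decides whether the 2 results hold. Without line 6, ICAM1 in the second batch was at −0.0074 with IL-1β, and CDH2 at −0.14 between IL-1β + IL1Ra and IL-1β. Without line 7, VCAM1 was at −0.25 there. NCAM1 in the first batch also lost its call without the filter (limma adjusted p = 0.0538) and without the trend (0.0538), and a filter of 50 normalised counts left it untested. The cause was not tested. Over all genes the counts of DE genes ran from 1377 to 4078 in the first batch (1885 as reported), 0 to 1236 for IL-1β in the second (57), 0 to 414 for IL-1β + IL1Ra against control (2) and 0 to 100 against IL-1β (0). Scaling to the library total moved the median of all genes to −0.19 for IL-1β and to 0.11 for IL-1β + IL1Ra against IL-1β in the second batch, and no member changed sign. NCAM1 in the stimulated gels of the second batch was at most 16.2 normalised counts.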
